A study of Mus musculus with 9 samples.

Results

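Chromosome 8 of mouse embryonic stem cells carried a change of direction in transcript dosage close to Klf2. Protein-coding genes nearer the centromere were mostly higher in the libraries labelled as lacking KLF2 and KLF4 than in wild type, and those nearer the far end were mostly lower. The genes described here are 492 of the 1037 protein-coding genes that the count table holds on this chromosome in build mm10. Of the 1037, 530 reached a mean of at least 5 CPM (read counts of a gene divided by the library's total and multiplied by 1000000) over the 9 libraries, and 38 of those were left out by symbol, Klf2 among them. The 215 proximal members start at or before base 72134975 and the 277 distal members start at or after base 72161200. That dividing position came from an earlier scan of the fold changes of these same 9 libraries. The fold changes and calls of the members are therefore a description of the contrast that chose them, and no p-value is given for a member or a side. All 492 members passed the filter on low counts, and all are counted below. Some of them were under 5 CPM in 1 group and reached the limit only through the other. Tmco3 and Tbc1d9 were at means of 3.82 and 4.05 CPM in WT and 7.67 and 8.07 in DKO. The distal 1700030K09Rik was at 6.32 CPM in WT and 4.16 in DKO. Nothing is read from the calls of such members, and their part in the counts, classes and ranges below was not tested. Just inside the limit of 5 CPM lay 1700030K09Rik at 5.12 CPM and Nfix at 5.27 CPM, with log2 fold changes of -0.60 and -3.18. Just outside it lay Acsf3 at 4.99 CPM and Pbx4 at 4.95 CPM, with -0.94 and 0.35.

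The cells were V6.5, an established mouse embryonic stem cell line, in medium with 15% fetal bovine serum, LIF and 2 inhibitors, of GSK and of MEK, which were shared by both groups. There were 4 wild-type (WT) libraries and 5 libraries labelled KLF2/KLF4 double knockout (DKO). The reads come from the 3' ends of polyadenylated transcripts. The labels name neither clones nor separate cultures, so the spread between libraries may be technical, and they do not say how the knockout was made.

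Gene dosage means here the transcript level relative to WT. Genes that lie together on a mouse chromosome mostly differ in function, so a shift in dosage over a long stretch touches many pathways at once. Proteins that work in fixed complexes are made from genes on several chromosomes, and their subunits are usually needed in set proportions. Only RNA was measured in the data used here, and DNA copy number was not tested.

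The knockout label was checked first. Klf2 counts were 3042, 3064, 3048 and 3297 in the WT libraries, in the order of their numbers, and 3970, 3822, 3750, 3750 and 4044 in the DKO libraries. Klf4 counts were 5860, 5085, 5873 and 6183 in WT and 9385, 10210, 10778, 9937 and 9722 in DKO. Both transcripts were thus higher in every library labelled DKO, by 0.42 ± 0.04 (SE) for Klf2 and 0.91 ± 0.06 for Klf4 on the log2 scale. Reads at the end of a transcript outside the deleted part check nothing about the deletion, so "DKO" below names the label. Klf2, a zinc finger transcription factor of naive pluripotency, starts at base 72319033, on the distal side, where most neighbours were lower. Library totals ran from 6035642 to 7098530 counts. The 6 embryonic stem cell markers summed to 1349 to 1400 CPM in the WT libraries and 1478 to 1561 in those labelled DKO. Markers of feeder fibroblasts, 2-cell-like cells, primitive endoderm and trophoblast summed to at most 10.1 CPM in any library. The primitive endoderm list was at 1.76 to 3.40 CPM in the WT libraries and 3.11 to 4.47 in those labelled DKO, and its part in the results was not tested.

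The promoters of the pair of genes on either side of the dividing position are shown first, because that position defines the members. They come from RefSeq on GRCm38.p6 and run from 250 bases before to 50 bases after RefSeq's start of the gene. Capitals mark CACCC, the core of the box that KLF factors bind, searched on both strands, so that its reverse complement GGGTG is in capitals too. In Tpm4, some of the matches overlap.
Tpm4 promoter, chr8:72135038-72135337, + strand: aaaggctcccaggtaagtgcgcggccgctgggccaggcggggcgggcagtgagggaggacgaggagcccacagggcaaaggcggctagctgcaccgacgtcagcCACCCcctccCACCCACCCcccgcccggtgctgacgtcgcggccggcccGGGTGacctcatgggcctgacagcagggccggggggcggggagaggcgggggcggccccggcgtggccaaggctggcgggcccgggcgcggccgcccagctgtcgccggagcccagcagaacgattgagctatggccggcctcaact
Rab8a promoter, chr8:72160950-72161249, + strand: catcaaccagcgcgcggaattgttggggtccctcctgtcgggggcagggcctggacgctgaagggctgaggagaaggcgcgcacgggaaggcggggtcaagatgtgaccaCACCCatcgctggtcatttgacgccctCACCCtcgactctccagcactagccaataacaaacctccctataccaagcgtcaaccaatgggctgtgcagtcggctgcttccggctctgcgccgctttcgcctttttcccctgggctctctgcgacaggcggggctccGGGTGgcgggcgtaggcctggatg
The Tpm4 window held 4 matches and the Rab8a window 3. Among all 27025 RefSeq promoters of this length, 56.7% held at least 1 match, 9.01% at least 3 and 3.03% at least 4. A match is a description of the letters and not a binding site.

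The promoters of Mt1 and Mt2 follow, because these metallothionein genes held the most counts on the distal side and went against it. Capitals mark TGCACNC and TGCGCNC, the core of the metal response element, on both strands.
Mt1 promoter, chr8:94178839-94179138, + strand: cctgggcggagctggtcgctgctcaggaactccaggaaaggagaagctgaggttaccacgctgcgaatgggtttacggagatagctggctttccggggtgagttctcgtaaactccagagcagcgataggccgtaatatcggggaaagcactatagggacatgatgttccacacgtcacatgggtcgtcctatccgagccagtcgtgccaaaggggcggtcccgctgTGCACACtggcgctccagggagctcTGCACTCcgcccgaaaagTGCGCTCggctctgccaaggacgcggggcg
Mt2 promoter, chr8:94172368-94172667, + strand: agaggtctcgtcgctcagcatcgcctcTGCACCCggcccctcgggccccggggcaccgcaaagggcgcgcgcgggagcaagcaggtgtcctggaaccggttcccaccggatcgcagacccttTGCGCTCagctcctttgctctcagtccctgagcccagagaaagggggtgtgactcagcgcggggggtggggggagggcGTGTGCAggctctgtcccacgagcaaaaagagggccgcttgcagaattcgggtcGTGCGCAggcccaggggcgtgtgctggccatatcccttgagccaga
The Mt1 window held 3 matches and the Mt2 window 4. At least 3 matches occurred in 2.00% of all 27025 promoters and at least 4 in 0.503%. A comparison of motifs between the sides is void, because RefSeq promoters were matched by symbol for 124 of 215 proximal members (57.7%) and 225 of 277 distal members (81.2%).

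The dividing position fell between neighbouring genes that differ in direction, which the scan that chose it had set in advance. Tpm4, a tropomyosin of the actin cytoskeleton (72134975 to 72153142, plus strand), was at 127.5, 113.4, 127.0 and 112.7 CPM in WT and 148.6, 144.3, 167.5, 150.6 and 156.2 in DKO. Rab8a, a small GTPase of vesicle traffic (72161200 to 72183904, plus strand), was at 248.0, 249.3, 246.5 and 236.4 CPM in WT and 152.5, 163.1, 174.4, 149.6 and 152.5 in DKO. The groups did not overlap for either gene, with Tpm4 higher in every DKO library and Rab8a lower in every one. CPM values of single genes here and below are scaled with edgeR's library factors. The log2 fold changes, DKO over WT, were 0.35 ± 0.06 (SE) and -0.63 ± 0.05. Their starts lie 26225 bases apart, and 0 other protein-coding genes start between them. Of the other members nearest the position, the proximal Colgalt1 and Jak3 were at 0.62 and 0.59. Fcho1, the proximal member next to Tpm4, was called lower, at -0.48 ± 0.13, without overlap of the groups. The distal Fam32a and Eps15l1 were at -0.40 and -0.69, and Ap1m1 was not called, at -0.16. In bulk RNA, fewer cells that express a gene and less RNA per cell cannot be told apart.

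On the proximal side the median log2 fold change was 0.43, a level 1.34 times that of WT, with quartiles of 0.26 and 0.69. Of its 215 members, 191 had a positive fold change and 24 a negative one, where 50.9% of all genes tested had a positive one. A gene is called here where edgeR's quasi-likelihood test gave a Benjamini-Hochberg adjusted p under 0.05 over all 11893 genes tested. By that rule 166 proximal members (77.2%) were called higher, 14 (6.51%) lower and 35 were not called. Over all genes tested, 23.8% were called higher and 24.0% lower. On the distal side the median was -0.61, or 65.6% of WT, with quartiles of -0.79 and -0.35, and 253 of the 277 members had a negative fold change. There 232 members (83.8%) were called lower, 11 (3.97%) higher and 34 were not called. Since the dividing position was chosen from these fold changes, nothing is read from the distance between these shares and the background.

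Within a side the members spread about as widely as genes elsewhere. The interquartile range was 0.43 over proximal and 0.44 over distal members, against 0.41 over 8258 protein-coding genes of at least 5 CPM off chromosomes 6, 8, Y and M, whose median was 0.01. Fold changes between 0.2 and 1 in the direction of the side held 152 proximal (70.7%) and 205 distal members (74.0%). Larger ones held 18 proximal and 35 distal members. The ranges were wide, from -1.69 to 3.42 on the proximal side and from -3.18 to 1.73 on the distal side. The value of -3.18 is that of Nfix, at 5.27 CPM just inside the limit. The groups did not overlap, with DKO higher, for 149 proximal members, and with DKO lower for 215 distal members. In all genes tested, 18.3% did not overlap with DKO higher and 19.1% with DKO lower.

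**Figure D1:**
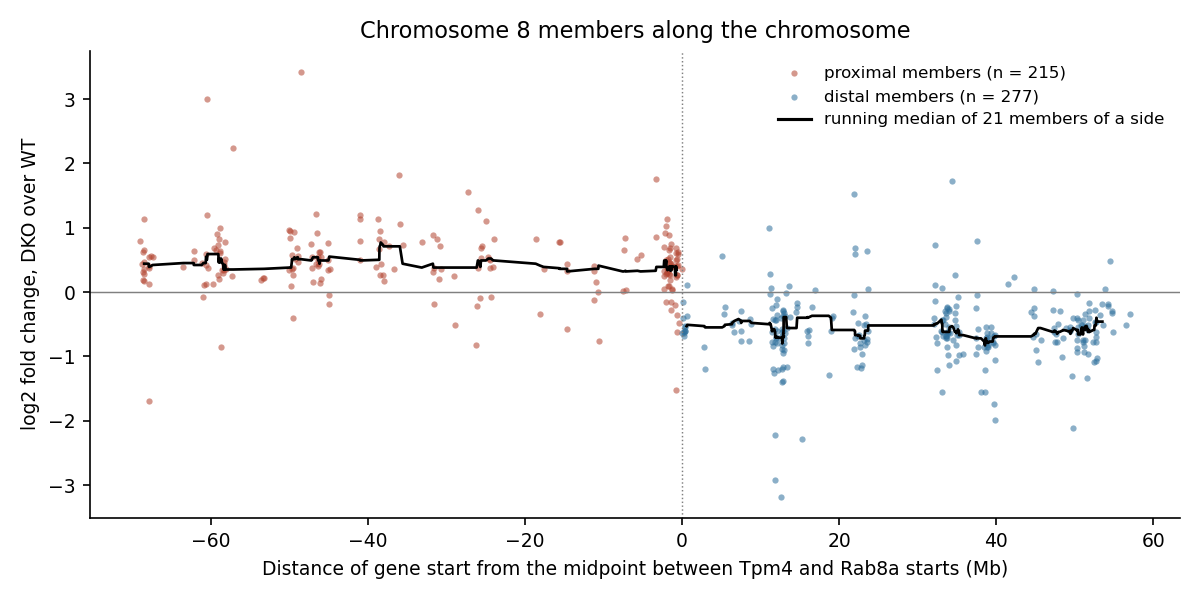
Log2 fold change, DKO over WT, of each of the 492 members (y) against the distance of its start from the midpoint between the Tpm4 and Rab8a starts in megabases (x), with the running median of 21 members of a side as a line. The proximal points centre on 0.43 and the distal ones on -0.61. The running median was taken within each side, so the place of the step in the line is set by the dividing position.

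Each DKO library showed the step, while WT libraries lie near 0 by construction, since ratios are to the WT mean. For every member the CPM of a library was divided by the WT mean after adding 0.5 CPM, and the median log2 ratio was taken over a side. The proximal median was 0.47, 0.43, 0.45, 0.42 and 0.41 in DKO 1 to 5, and it lay between -0.02 and 0.01 in WT. The distal median was -0.60, -0.58, -0.57, -0.63 and -0.62 in DKO and lay between -0.01 and 0.00 in WT. The DKO libraries therefore lay close together on both sides, with an SD of 0.0241 for the proximal and 0.0255 for the distal medians (n = 5). The genes off chromosomes 6, 8, Y and M had medians of 0.00 to 0.01 in the same libraries. The difference between the proximal and the distal median was 1.04 ± 0.0241 (SD, n = 5) in DKO, with a lowest value of 1.01 and a highest of 1.07. A single DKO library had 167 to 179 of the 215 proximal members above all 4 WT libraries and 234 to 240 of the 277 distal members below all of them. Of all genes tested, 33.8% to 35.6% lay above all WT libraries in a single DKO library and 33.2% to 35.0% below them.

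**Figure D2:**
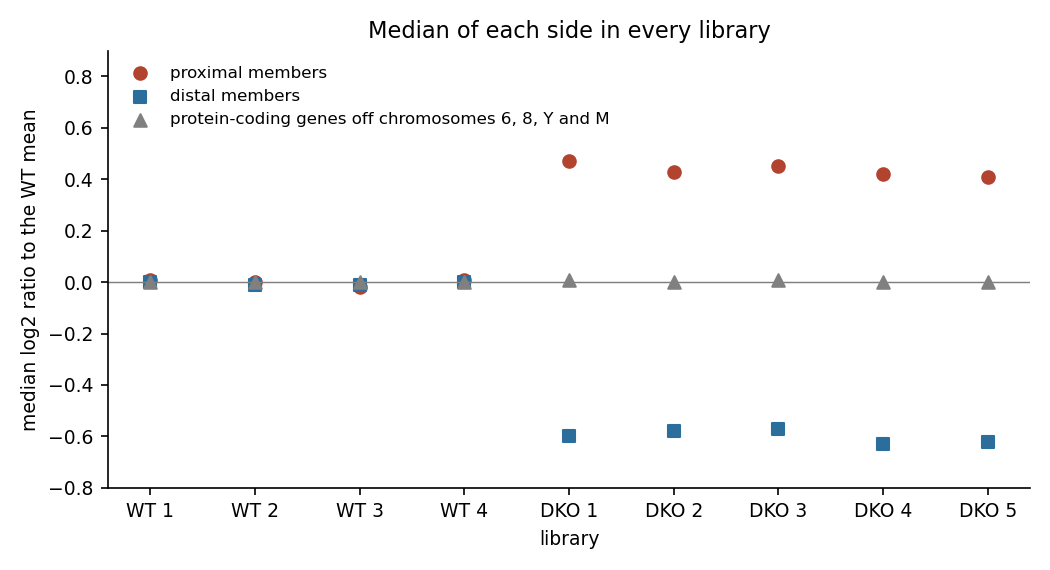
Median log2 ratio to the WT mean over proximal members, distal members and the genes off chromosomes 6, 8, Y and M (y), for each of the 9 libraries (x). The 5 DKO libraries sit at 0.41 to 0.47 on the proximal and at -0.63 to -0.57 on the distal side, and the 4 WT libraries sit near 0.

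Summed counts moved in the same directions. The shares are of each library's total, and only the ratio of distal to proximal counts needs no scaling between libraries. Proximal members took 1.80% ± 0.00979 (SD, n = 4) of all counts in WT and 2.56% ± 0.0466 (n = 5) in DKO. Distal members took 3.57% ± 0.0392 in WT and 2.85% ± 0.0964 in DKO. The ratio of distal to proximal counts was 1.98 ± 0.0181 in WT and 1.11 ± 0.0260 in DKO. The lowest WT library was at 1.97 and the highest DKO library at 1.15, so the groups did not overlap. Mt1 and Mt2 alone took 0.563% ± 0.0285 of all counts in WT and 0.905% ± 0.0441 in DKO, against the direction of their side. Without this pair the ratio was 1.67 ± 0.00401 in WT and 0.759 ± 0.0210 in DKO, and the distal share was 3.01% in WT and 1.95% in DKO. These shares are sums of reads, not averages over genes, and abundant genes weigh most in them.

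The size of the step was compared across expression levels. Proximal medians were 0.52 at 5 to 10 CPM (14 members), 0.59 at 10 to 20 (35), 0.39 at 20 to 50 (47), 0.40 at 50 to 100 (64), 0.46 at 100 to 200 (29) and 0.42 above 200 (26). Distal medians were -0.46 at 5 to 10 CPM (23 members), -0.43 at 10 to 20 (47), -0.57 at 20 to 50 (86), -0.67 at 50 to 100 (52), -0.61 at 100 to 200 (27) and -0.63 above 200 (42). All 12 classes had the direction of their side. On the distal side, the DKO libraries were at -0.51 to -0.43 for members of 10 to 20 CPM and at -0.70 to -0.64 for members of 50 to 100 CPM, which did not overlap. The 0.5 CPM added to each value draws ratios of low members toward 0. The fitted medians of these classes, which do not use it, were -0.43 and -0.67, and its part in the difference was not tested. On the proximal side, the DKO libraries were at 0.43 to 0.63 for members of 10 to 20 CPM and at 0.39 to 0.47 for those of 50 to 100 CPM, which overlapped.

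The interquartile range did not follow the level in a single order. On the proximal side it was 0.41 at 5 to 10 CPM, 0.72 at 10 to 20, between 0.31 and 0.40 in the next 3 classes and 0.28 above 200 CPM. On the distal side it was 0.60 and 0.65 in the lowest classes, between 0.27 and 0.37 in the next 3 and 0.41 above 200 CPM. Above 200 CPM, 23 of 26 proximal members were called higher and 0 lower, and 38 of 42 distal members were called lower and 2 higher, Mt1 and Mt2.

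**Figure D3:**
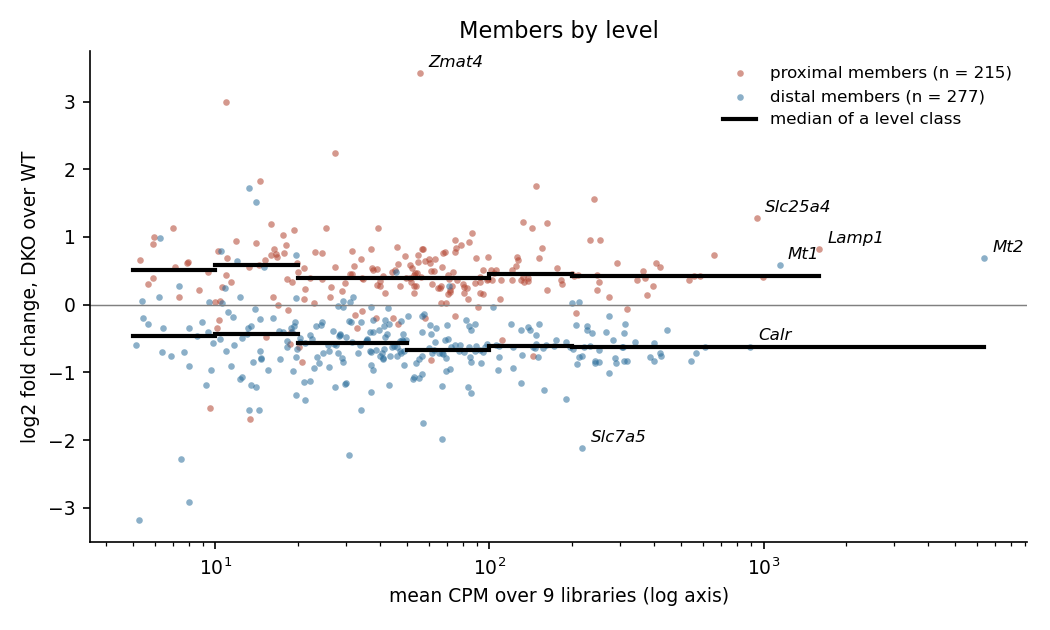
Log2 fold change, DKO over WT, of each member (y) against its mean CPM on a log axis (x), proximal and distal in separate colours, with the median of each level class as a horizontal line. Class medians lie at 0.39 to 0.59 on the proximal side and at -0.67 to -0.43 on the distal side.

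Along the chromosome every window of 10 Mb had the direction of its side, with some differences in size. In these windows the proximal medians lay between 0.32 and 0.49, except for 0.75 between 30 and 40 Mb, from Rnf122 to Tusc3. All 20 members of that window were called higher, and its DKO libraries ranged from 0.66 to 0.74. The window from 20 to 30 Mb ranged from 0.43 to 0.54 in the same libraries, and the last proximal window, from Mau2 to Tpm4, from 0.32 to 0.39. Distal medians lay between -0.71 and -0.54. The lowest stood between 110 and 120 Mb, from Cmtr2 to Usp10, where 38 of 42 members were called lower and 0 higher. Its DKO libraries ranged from -0.77 to -0.62 and did not overlap those of the last window, from 120 to 130 Mb, at -0.60 to -0.50. Nor did they overlap those of the first, from 70 to 80 Mb, at -0.60 to -0.40. They overlapped those from 80 to 90 Mb, at -0.64 to -0.57, and from 90 to 100 Mb, at -0.66 to -0.56. They met those from 100 to 110 Mb, at -0.62 to -0.51. The 20 members nearest the dividing position on the proximal side, from Ccdc124 to Tpm4 (1267 kb), had a median of 0.38, with 12 called higher and 4 lower. The first 20 distal members, from Rab8a to Lsm6 (6644 kb), had a median of -0.54, with 17 called lower and 1 higher.

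Several protein complexes have subunits on both sides, and most of the listed subunits had the direction of their side. The 11 lists of subunits hold 15 proximal and 19 distal members, and they do not hold every subunit among the members. Some lists pool separate parts, such as the adaptor complexes AP-1 and AP-3, or tankyrase and shelterin. Of the 15 proximal subunits, 14 were called higher, 0 lower and 1 was not called, with a median of 0.42. Of the 19 distal ones 17 were called lower, 0 higher and 2 were not called, with a median of -0.58. Of all members, 77.2% of the proximal ones were called higher and 83.8% of the distal ones lower. Over all genes tested, 23.8% were called higher and 24.0% lower. The sides were split on these fold changes, so nothing about complexes as such is read from these counts. The subunits that were not called were Upf1 at 0.09, Ist1 at -0.04 and Ap1m1 at -0.16.

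GINS, the ring that joins the replicative helicase at forks, has Gins4 on the proximal side and Gins2 and Gins3 on the distal side. Gins4 was at 86.9, 85.0, 80.9 and 89.8 CPM in WT and 113.9, 113.9, 117.2, 125.6 and 120.9 in DKO. Gins2 was at 376.2, 400.4, 387.1 and 354.5 CPM in WT and 185.7, 189.0, 236.3, 160.2 and 168.6 in DKO. Gins3 was at 23.7, 27.8, 30.6 and 25.8 CPM in WT and 16.7, 18.1, 18.2, 20.8 and 21.4 in DKO. All DKO libraries were above WT for Gins4 and below it for Gins2 and Gins3. Log2 fold changes were 0.47 ± 0.06 for Gins4, -1.01 ± 0.09 for Gins2 and -0.50 ± 0.11 for Gins3. Gins2 overlaps Gse1 on the other strand by 2758 bases, and since the strand setting of the counting is not given in the sources used, their reads may be shared.

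The deadenylase complex CCR4-NOT, which shortens poly(A) tails, was split in the same way. Its catalytic subunit Cnot7 was at 66.7, 77.1, 70.5 and 68.4 CPM in WT and 91.1, 85.8, 84.6, 90.8 and 85.3 in DKO. Its scaffold Cnot1 was at 279.6, 269.4, 285.5 and 271.1 CPM in WT and 152.6, 162.1, 171.5, 159.6 and 164.4 in DKO. The log2 fold changes were 0.31 ± 0.06 and -0.77 ± 0.05, with no overlap of the groups for either. Cnot7 overlaps Zdhhc2 by 17729 bases and Vps37a by 4065 bases on the other strand and is uncertain for that reason.

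In the anaphase-promoting complex, the ubiquitin ligase of mitotic exit, Cdc16 was at 55.6, 55, 52.9 and 55.2 CPM in WT and 68.1, 66.5, 64.8, 65.2 and 71.2 in DKO. Anapc10, which helps it hold its substrates, was at 52.3, 55, 48.8 and 67.8 CPM in WT and 33.7, 34.4, 31.6, 30.4 and 35.2 in DKO. The groups did not overlap for either subunit, and the log2 fold changes were 0.30 ± 0.07 and -0.76 ± 0.09. Without WT library 4 the value of Anapc10 was -0.66. At the centromere, the inner kinetochore protein Cenpu was higher by 0.53 ± 0.09, while Cenpt and Cenpn were lower, at -0.71 ± 0.10 and -0.25 ± 0.10. The call of Cenpn was lost in several alternatives, with values of -0.26 to -0.22 there. Cenpu overlaps Primpol on the other strand by 4414 bases.

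Listed subunits of membrane traffic complexes lay on both sides too. In the ESCRT machinery, which sorts membrane proteins into endosomes and cuts membrane necks, the proximal Vps36, Mvb12a and Vps37a were at 0.84 ± 0.05, 0.52 ± 0.09 and 0.38 ± 0.07. The distal ATPase Vps4a was at -0.53 ± 0.09 and Chmp1a at -0.75 ± 0.08. Vps36 was at 105.9, 103.4, 111.8 and 109.3 CPM in WT and 198.7, 194.3, 190.5, 189.1 and 192.7 in DKO, the groups being far apart. Of the adaptor protein subunits, Ap3m2, of AP-3, was higher by 0.94 ± 0.17 and Ap1g1, of AP-1, lower, at -0.58 ± 0.05. AP-1 and AP-3 are separate complexes and Ap1m1, also of AP-1, is distal too, so no adaptor complex is shown to be split. The TRAPP tethering subunits Trappc5 and Trappc2l were at 0.47 ± 0.07 and -0.43 ± 0.10. Trappc11, a proximal member that is not on the list, was at 0.54 ± 0.08. Of the COG complex, which tethers vesicles within the Golgi, the 3 subunits among the members lie on the distal side and were all lower, Cog8 by the most. Cog8 was at 78.7, 78.7, 76.6 and 79.7 CPM in WT and 36.7, 35.5, 40.6, 37.7 and 35.1 in DKO, a log2 fold change of -1.08 ± 0.07. Cog2 and Cog4 were at -0.78 ± 0.07 and -0.71 ± 0.08.

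In the nucleus, the SIN3 deacetylase complex had Ing1, Ing2 and Sap30 on the proximal side at 0.42 ± 0.07, 0.37 ± 0.07 and 0.32 ± 0.06, and the scaffold Sin3b on the distal side at -0.38 ± 0.05. Sin3b was at 537.3, 506.0, 511.0 and 482.9 CPM in WT and 414.9, 401.0, 400.1, 366.5 and 374.6 in DKO, without overlap. Tankyrase, Tnks, which modifies telomere proteins and axin, was at 93.2, 92.0, 91.2 and 95.4 CPM in WT and 149.5, 146.8, 163.6, 143.8 and 155.5 in DKO. Its log2 fold change was 0.71 ± 0.06. The shelterin subunits Terf2ip, Acd and Terf2, which cap telomeres, are distal and were at -0.67 ± 0.08, -0.32 ± 0.09 and -0.22 ± 0.06. The nonsense-mediated decay factor Upf3a was at 0.34 ± 0.06.

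**Figure D4:**
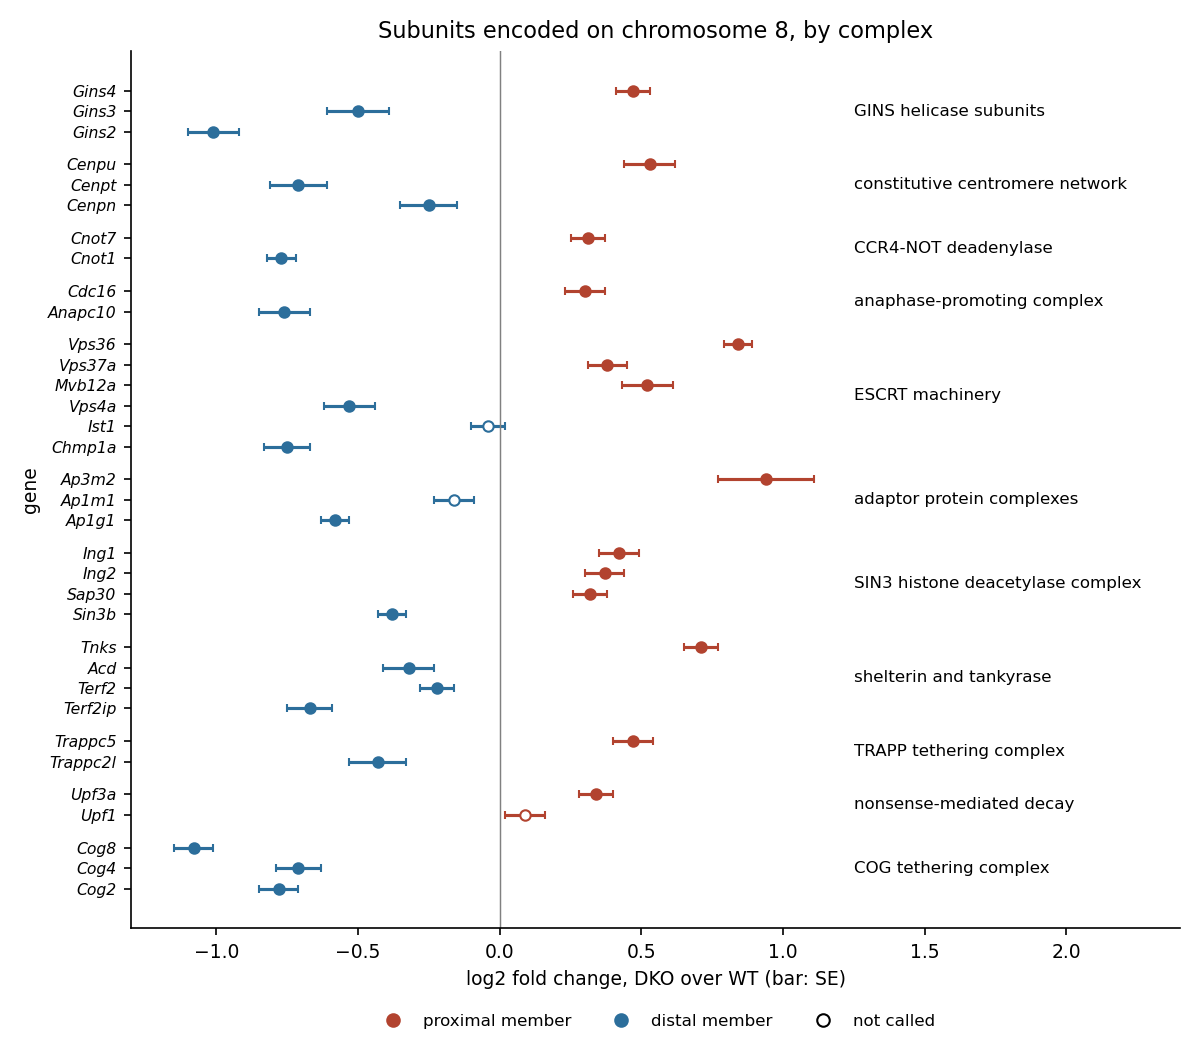
Log2 fold change with its standard error (x) of each subunit on the 11 lists of complexes (y), proximal and distal in separate colours, with subunits that were not called drawn open. Among the 15 proximal subunits 14 were called higher, and among the 19 distal ones 17 were called lower. Of all members, 77.2% of the proximal ones were called higher and 83.8% of the distal ones lower.

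The lists by function gave medians of the same sign as the side throughout. There were 15 lists, which together hold 127 proximal and 175 distal members. Over the 14 lists with at least 5 members on the proximal side the medians lay between 0.34 and 0.62, and over the 14 with at least 5 on the distal side they lay between -0.98 and -0.50. The whole sides stood at 0.43 and -0.61, with 77.2% of proximal members called higher and 83.8% of distal members called lower. Over all genes tested, 23.8% were called higher and 24.0% lower. The lists were written with earlier results known, so the counts below describe the listed members and not a function as a whole.

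Listed cell cycle and replication genes mostly had the direction of their side. Of 16 proximal members 14 were called higher and 1 lower, with a median of 0.50, and of 13 distal members all were called lower, with a median of -0.62. Ckap2, a spindle protein, was at 0.95 and the chromatin protein Hmgb2 at 0.44. The licensing factor Cdt1 was at -0.55 and E2f4, a repressor of cell cycle genes, at -0.62. Listed DNA repair and telomere genes were called higher for 7 of 7 proximal members (median 0.50) and lower for 9 of 9 distal members (median -0.70). Among the distal ones, Rnaseh2a, a subunit of the nuclease that removes ribonucleotides from DNA, was at -0.95. The list leaves out the proximal member Lig4, which was called higher, at 0.63.

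Among chromatin regulators all 8 proximal members were called higher, with a median of 0.41, and 16 of 17 distal members lower, with a median of -0.52. Ash2l, a core subunit of the histone H3 lysine methyltransferase complexes, was at 831.4, 878.1, 879.0 and 789.0 CPM in WT and 1107, 1150, 1182, 1079 and 1076 in DKO. Its groups did not overlap, and its log2 fold change was 0.41 ± 0.04. On the distal side the remodeller Smarca5 was at -0.76 and the insulator protein Ctcf at -0.29. The exception was Irf2bp2, a corepressor, which was higher by 0.48.

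Genes of RNA and protein synthesis followed their side too. All 17 distal genes of ribosome assembly, tRNA and translation were called lower, with a median of -0.71, and 5 of the 6 proximal ones higher, with a median of 0.43. The tRNA ligases Aars, Farsa and Kars were at -0.86, -0.83 and -0.83. Of the RNA processing and decay genes 9 of 12 proximal members were called higher (median 0.35) and 13 of 16 distal members lower (median -0.67). The farthest was Cmtr2, which methylates the mRNA cap, at -1.56. Of the transcription factors and machinery, 7 of 9 proximal members were called higher and 1 lower (median 0.34), and 12 of 14 distal members lower and 0 higher (median -0.61).

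Protein turnover and membrane compartments gave similar counts. Of the ubiquitin pathway genes 8 of 10 proximal members were called higher and 1 lower (median 0.59), and 14 of 15 distal members lower (median -0.50). Membrane trafficking genes were called higher for 10 of 13 proximal members and lower for 1 (median 0.47), and lower for 16 of 20 distal members (median -0.56). In the lysosome list 6 of 7 proximal members were higher (median 0.62) and 5 of 5 distal members lower (median -0.55). Lamp1, the main lysosomal membrane glycoprotein, was at 1109, 1165, 1087 and 1130 CPM in WT and 2061, 1855, 1959, 2010 and 2013 in DKO, a log2 fold change of 0.82 ± 0.04. It had the highest count of the proximal members, its groups were far apart, and it overlaps Grtp1 on the other strand by 3317 bases. In the endoplasmic reticulum and glycosylation list 8 of 9 proximal members were higher and 1 lower (median 0.56), and 8 of 11 distal members lower (median -0.62). Calr, a calcium-binding chaperone, was at 1113, 1079, 1139 and 1119 CPM in WT and 693.0, 713.3, 807.1, 712.5 and 690.9 in DKO, at -0.62 ± 0.05.

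**Figure D5:**
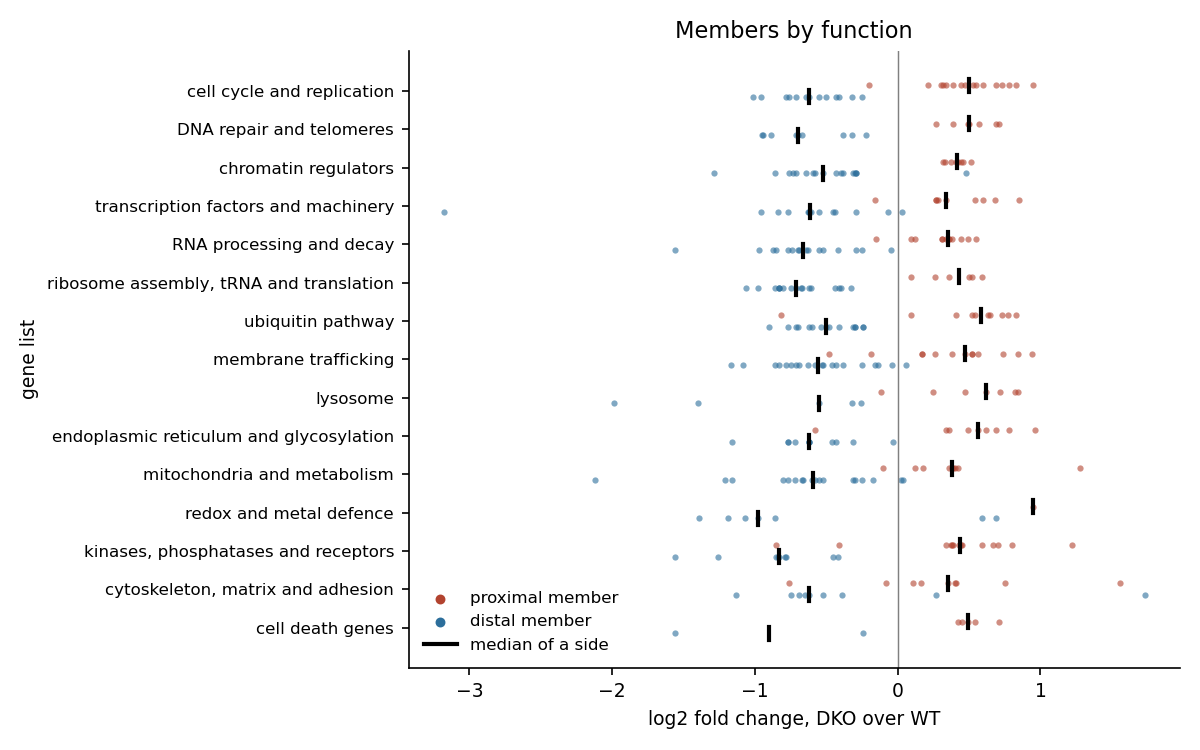
Log2 fold change of each member (x) of the 15 lists by function (y), proximal and distal in separate colours, with the median of each list and side as a bar. Medians of lists with at least 5 members on a side lie at 0.34 to 0.62 for proximal and at -0.98 to -0.50 for distal members.

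Among the named members, those farthest in the direction of their side were ranked by fold change, so they lie beyond the median by choice. Zmat4, a zinc finger protein (23636019 to 24156585, plus strand), was at 8.35, 9.12, 9.96 and 7.22 CPM in WT and 87.7, 94.8, 86.6, 101.6 and 94.4 in DKO. Its log2 fold change was 3.42 ± 0.10, a level 10.7 times that of WT. Lpl, lipoprotein lipase, was at 65.8, 62.9, 60.1 and 65.7 CPM in WT and 208.7, 202.9, 194.7, 239.1 and 228.3 in DKO. Fat1, a giant protocadherin, was at 119.6, 112.3, 109.0 and 121.6 CPM in WT and 382.4, 307.1, 319.6, 344.3 and 346.3 in DKO. All of these had every DKO library far above WT, at 1.75 ± 0.06 for Lpl and 1.56 ± 0.06 for Fat1. Slc25a4, the mitochondrial ADP/ATP carrier, was at 536.1, 528.5, 534.2 and 506.9 CPM in WT and 1318, 1191, 1177, 1375 and 1348 in DKO, at 1.28 ± 0.05. Kbtbd11, a kelch-repeat protein, and Prag1, a pseudokinase, were at 2.24 ± 0.13 and 1.82 ± 0.15. Zmat4, Kbtbd11 and Prag1 had WT means of 8.66, 8.87 and 6.03 CPM. They passed the naming limit of 10 CPM only through the DKO libraries, so nothing is read from their ranks. The gene 1700016D06Rik, which has no other name, was second to Zmat4 on this side, at 10.9 CPM and a log2 fold change of 3.0, and was called higher. Its mean was 2.22 CPM in WT and 17.8 in DKO. It thus reached the limit of 5 CPM only through the DKO libraries, and nothing is read from its rank or call.

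Among distal members, Slc7a5, the carrier of large neutral amino acids (121881150 to 121907694, minus strand), was at 348.4, 416.9, 385.1 and 372.6 CPM in WT and 75.9, 93.7, 100.1, 87.8 and 81.9 in DKO. Its level in DKO was 23.1% of WT, a log2 fold change of -2.12 ± 0.06. Gabarapl2, an ATG8 protein of autophagy, was at 113.9, 112.6, 108.7 and 123.6 CPM in WT and 24.1, 28.3, 31.4, 28.8 and 31.8 in DKO. Its neighbour Tmem231, of the transition zone of the cilium, was at 94.8, 99.1, 94.9 and 85.8 CPM in WT and 27.1, 27.6, 32.6, 28.9 and 23.8 in DKO. Both stood at under 30% of WT, at 25.1% for Gabarapl2 and 29.9% for Tmem231. Palm3, a paralemmin, was at -2.22 ± 0.18, and Tradd, an adaptor of the TNF receptor, was at -1.56. Tradd and Cmtr2 had DKO means of 7.1 and 7.71 CPM. They passed the naming limit of 10 CPM only through the WT libraries, so nothing is read from their ranks.

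A few members went against their side. On the distal side 11 members were called higher, with the metallothioneins Mt1 and Mt2, which bind zinc and cadmium, far ahead in counts. Mt2 (94172664 to 94173568, plus strand) was at 4567, 5046, 4536 and 4855 CPM in WT and 8011, 7412, 7926, 7222 and 7859 in DKO. Mt1 (94179082 to 94180327, plus strand) was at 842.1, 932.1, 909.0 and 884.8 CPM in WT and 1353, 1293, 1406, 1326 and 1344 in DKO. Their groups did not overlap, and the log2 fold changes were 0.69 ± 0.04 and 0.59 ± 0.04. The pair are close copies, so reads may be split between them in a way that the counting does not show. Cdh3, P-cadherin, was at 4.77, 6.38, 4.98 and 6.94 CPM in WT and 19.5, 23.0, 13.4, 21.7 and 18.5 in DKO, at 1.73 ± 0.16. Bbs2, a subunit of the BBSome that moves proteins into cilia, was at 6.11, 8.51, 7.62 and 5.38 CPM in WT and 21, 18.6, 25.5, 18.0 and 16.1 in DKO, at 1.52 ± 0.16. Atxn1l, Cmtm3 and Ndrg4 were at 0.80, 0.73 and 0.64. Cdh3, Bbs2, Atxn1l and Ndrg4 had WT means of 5.77, 6.91, 7.4 and 9.14 CPM. They passed the naming limit of 10 CPM only through the DKO libraries, so nothing is read from their ranks.

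On the proximal side 14 members were called lower. The chemokine Ccl25 was at 23.9, 20.8, 28.9 and 13.7 CPM in WT and 5.52, 6.40, 8.18, 6.05 and 7.51 in DKO, at -1.69 ± 0.18. Its start overlaps that of Elavl1 on the other strand by 204 bases, and Elavl1 was not called, at 0.12. Palld, an actin-binding protein of stress fibres, was at 194.9, 180.6, 185.3 and 182.6 CPM in WT and 107.0, 100.4, 111.1, 112.6 and 119.0 in DKO, at -0.76 ± 0.06. Ufsp2, a protease of the ubiquitin-like modifier UFM1, was at 74.9, 88.6, 73.2 and 85.9 CPM in WT and 50.2, 44.5, 36.5, 46.4 and 50.9 in DKO, at -0.82 ± 0.08. Each of these had all DKO libraries below all WT libraries. Gas6, a ligand of the TAM receptors, the antiviral membrane protein Bst2 and the glycosyltransferase Galnt7 were at -0.85, -0.62 and -0.58. Ccl25 had a DKO mean of 6.73 CPM. It passed the naming limit of 10 CPM only through the WT libraries, so nothing is read from its rank.

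Genes that defend against oxidants and metals lay on both sides of 0 within the distal list. Of 7 distal members 5 were called lower and 2 higher, Mt1 and Mt2, with a median of -0.98. The thioredoxin peroxidase Prdx2, haem oxygenase Hmox1, the quinone reductase Nqo1 and Egln1, the oxygen-sensing hydroxylase of HIF, were at -1.39, -1.19, -0.98 and -1.07. Gsr, glutathione reductase, was the only proximal member of the list and was higher by 0.95. Prdx2 overlaps Rnaseh2a on the other strand by 181 bases.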

How the data were processed

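RNA from 4 WT and 5 DKO libraries was prepared with a 3' end kit from 600 ng of total RNA, per the labels' protocols. The authors deposited raw exon counts per gene. The genome build mm10 and the programs cutadapt, STAR, featureCounts and DESeq2 are named, with neither version nor role, per the submitters' processing notes. Not given in the sources used here are the annotation release, the strand setting and the handling of multi-mapped reads. All columns were mapped to samples by name. Of 52550 gene identifiers, 52403 were matched to GENCODE vM21, which gave symbols, types and positions.

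The whole table was fitted with edgeR 4.0.16 in R 4.3.3 (filterByExpr, TMM, robust quasi-likelihood fit and test, genotype label as the only term), and p-values were adjusted over 11893 genes. The scripts were checked on simulated data. The minimum of 5 CPM used unscaled totals, and other CPM values used TMM factors. Within groups, the 16 pairs of libraries had a chi-square per degree of freedom of 2.22 to 4.98, and none looked like 1 library counted in duplicate. Errors are the SD over libraries or the SE of the fit, and they cover the spread between these libraries only.

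The members and lists were chosen with earlier results of these data known. Named genes were the members next to the dividing position and the 6 of each side with the highest mean CPM. They were also the 6 called ones farthest with and against the side at 10 CPM or more. Every listed complex subunit was named, and up to 3 members per function list and side with the highest mean CPM. Predicted genes without a name (Gm numbers and Rik symbols) were left out of this rule. Other list members that are named were chosen after their values were seen. Alternatives were RLE factors, DESeq2 1.42.0, TMM on genes off chromosomes 6, 8, Y and M, no filter, a replicate block, libraries left out, other CPM limits and the left-out symbols put back. Centring of the library medians on the genes off those chromosomes was added after seeing the data. The values of a withheld gene are not reported here.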

Additional observations from a re-analysis of the deposited data

Results flagged for a closer look

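In 6 of the 274 groups of libraries tested (2.19%), the library at one end stood apart from the others of its group, where chance gives about 1 in 20. Pcm1, a centrosome satellite protein, was at 242 CPM in WT 3 against 220 to 222 in the other WT libraries, and Gab1, a receptor adaptor, was at 245 CPM there against 285 to 290. Sntb2, a syntrophin, was at 61.6 CPM in WT 2 against 64.4 to 64.7, and the lysyl-tRNA ligase Kars was at 438 CPM there against 411 to 413. Cmtr2 was at 27.3 CPM in WT 4 against 20.5 to 21.7. Calr was at 807 CPM in DKO 3 against 691 to 713 in the other DKO libraries, still below every WT library. Without WT 3 the log2 fold change of Gab1 was -0.48. The cause of these values was not tested.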

How the results depend on the processing

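Both medians and the counts in the direction of each side were stable. With each library left out in turn, the proximal median was 0.42 to 0.45 and the distal median -0.62 to -0.60, with 158 to 166 proximal members called higher, 12 to 15 lower, 225 to 234 distal members called lower and 11 higher each time. The ratio of distal to proximal counts in DKO, relative to that in WT, was 0.561 and ranged from 0.556 to 0.565. It was 0.476 without the 5 most abundant members of each side, Mt1 and Mt2 among them. With a member minimum of 20 CPM, 9 proximal members were called lower in place of 14, and 4 distal members higher in place of 11. Of the proximal members called lower, 1 lay at 5 to 10 CPM and 4 at 10 to 20. Of the distal members called higher, 1 lay at 5 to 10 CPM and 6 at 10 to 20. With the replicate number as a block, 168 proximal members were called higher, 15 lower, 11 distal members higher and 229 lower. Same-numbered libraries deviated together with r of 0.0862, -0.000266, 0.0884 and 0.0390. WT 1 and WT 3 correlated best with the DKO library of their own number, and WT 2 and WT 4 with DKO 5, at 0.0531 and 0.0489. Whether same-numbered libraries share a batch cannot be told from these values, and the labels name no pairing. In all 16 fits, 148 of the 166 proximal and 214 of the 232 distal members kept their call. Of 134 named genes, 126 were called, and 5 lost the call in at least 1 alternative: Cenpn, Cyld, Jund, Leprotl1 and Pla2g15. None of 2010 alternative values of named genes changed its sign as a called value. Depth limits single members near 5 CPM more than the medians.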

Other observations

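Around members with large changes, the flanking members are given for comparison. These neighbourhoods were chosen after the values were seen. Bbs2, Mt2 and Mt1 follow each other on the chromosome, at 1.52, 0.69 and 0.59. They were flanked by Ogfod1 at -0.89 and by Nup93, a scaffold nucleoporin, at -0.72. Tmem231 and Gabarapl2, at -1.74 and -1.99, lay between Tmem170 at -0.69 and Adat1, a tRNA deaminase, at -1.06. Slc7a5 at -2.12 lay between Klhdc4 at -1.3 and Banp at -0.40. Zmat4 at 3.42 lay between Golga7 at 0.56 and the metalloprotease Adam9 at 0.75. In each case the flanking members had the direction of their side.

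The listed signalling genes mostly followed their side, and the list does not hold every such member. Outside it, Vegfc was called lower, at -0.34, and Irs2 was called higher, at 0.45. Of 14 proximal kinases, phosphatases and receptors 11 were called higher and 2 lower (median 0.43), and of 9 distal members all were lower (median -0.83). Fgfr1, the FGF receptor, was at 1.22, the insulin receptor Insr at 0.80 and Jak3 at 0.59. On the distal side, Prkaca, the catalytic subunit of protein kinase A, was at -0.78 and Csnk2a2, a catalytic subunit of casein kinase 2, at -0.83. Of the mitochondrial and metabolic genes 6 of 9 proximal members were called higher (median 0.38) and 14 of 18 distal members lower (median -0.59). In the list of cytoskeleton, matrix and adhesion genes 6 of 9 proximal members were called higher and 1 lower (median 0.35), and 7 of 9 distal members lower and 2 higher (median -0.62). Itgb1, the beta subunit shared by many integrins, was at -0.52. Of the cell death genes all 5 proximal members were higher (median 0.49), and both distal members were lower.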
